A study of Mus musculus with 9 samples.

Results

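Hair cells turn sound-driven motion into nerve signals in the cochlea and are often recognised in tissue by marker genes. The 7 markers described here are Myo6, Anxa4, Smpx, Acbd7, Rasd2, Gng8 and Cd164l2. They were grouped apart from the genes of the hair bundle, the ribbon synapse and the transcription factor network, which does not exclude a role there. They were taken by name and found by Ensembl identifier among 51912 genes in each wildtype and heterozygous library. In the homozygous mutant libraries 6 of the 7 had a value, among 1137 genes, and Gng8 was not listed there.

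The data are RNA-seq of mouse cochlear tissue at postnatal day 3, in 9 libraries, with wildtype littermates as controls. Pou4f3 encodes a POU-domain transcription factor of hair cells, and Δ names a mutant allele of unstated extent. The genotypes are titled Pou4f3(+/+), here WT, Pou4f3(Δ/+), here HET, and Pou4f3(Δ/Δ), here HOM, with 3 libraries each. In 9 of 9 samples the title and the genotype characteristic disagree (samples titled HET carry the WT genotype there, those titled HOM the HET one and those titled WT the HOM one), and the titles were followed, on which every direction depends. All 3 groups share tissue and age, and no treatment is given. The labels do not say whether the libraries of a group came from separate animals, so part of the spread between libraries may be technical. Xist, transcribed from the inactive X, ran from 0.06 to 78.17 FPKM over the WT libraries. The WT libraries were therefore not all technical repeats of the same RNA.

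Myo6 encodes myosin VI, an actin motor that moves toward the pointed end of filaments and is needed to anchor the bundle in the hair cell. Anxa4 encodes annexin A4, which binds phospholipid membranes in the presence of calcium. Smpx encodes a small protein associated with the cytoskeleton of striated muscle and of hair cells, and its human counterpart is an X-linked deafness gene. Acbd7 encodes a small acyl-CoA-binding protein, Rasd2 the Ras-like GTPase Rhes, and Gng8 a gamma subunit of heterotrimeric G proteins. Cd164l2 encodes a membrane protein related to the sialomucin Cd164. Pou4f3 is required for the maturation and survival of hair cells, which otherwise form and are later lost.

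In GRCm38 with GENCODE M21 all 7 are protein-coding. Myo6 (ENSMUSG00000033577) lies at chr9:80165031-80311729 on the + strand, Anxa4 (ENSMUSG00000029994) at chr6:86736840-86793584 on the - strand and Smpx (ENSMUSG00000041476) at chrX:157698910-157752591 on the + strand. Acbd7 (ENSMUSG00000026644) lies at chr2:3336168-3340993, Rasd2 (ENSMUSG00000034472) at chr8:75213944-75224113, Gng8 (ENSMUSG00000063594) at chr7:16891786-16895436 and Cd164l2 (ENSMUSG00000028865) at chr4:133212131-133224555, each on the + strand. Exon length runs from 534 bp for Acbd7 to 12078 bp for Myo6. The opposite-strand gene Gpr3 shares 204 exon bases with Cd164l2, and the opposite-strand lincRNA Gm44036 shares 75 with Anxa4. Their WT means were 0.227 and 1.63 FPKM, and the labels do not say whether strand was used in counting. FPKM is a fragment number scaled to gene length and library depth, so that levels can be set beside each other between genes.

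The sequences just upstream of the start site are shown for the 4 listed markers that kept the least of their level in HOM, from RefSeq on GRCm38.p6, 5′ to 3′ on the coding strand. Capitals mark a match to a searched motif. The Smpx run stops at 187 bases, where a GENCODE exon begins, and the Cd164l2 run lies upstream of its protein-coding transcript, inside the span of longer noncoding ones.
Smpx, chrX:157698723-157698909, + strand: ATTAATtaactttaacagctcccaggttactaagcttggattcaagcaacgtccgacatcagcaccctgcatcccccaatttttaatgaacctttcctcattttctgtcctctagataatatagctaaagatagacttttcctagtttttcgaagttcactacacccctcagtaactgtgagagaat
Acbd7, chr2:3335918-3336167, + strand: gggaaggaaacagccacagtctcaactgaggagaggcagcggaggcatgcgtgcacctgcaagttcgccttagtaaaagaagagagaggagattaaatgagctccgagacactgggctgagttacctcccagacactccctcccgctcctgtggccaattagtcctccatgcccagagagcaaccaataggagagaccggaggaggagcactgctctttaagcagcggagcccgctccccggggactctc
Rasd2, chr8:75213694-75213943, + strand: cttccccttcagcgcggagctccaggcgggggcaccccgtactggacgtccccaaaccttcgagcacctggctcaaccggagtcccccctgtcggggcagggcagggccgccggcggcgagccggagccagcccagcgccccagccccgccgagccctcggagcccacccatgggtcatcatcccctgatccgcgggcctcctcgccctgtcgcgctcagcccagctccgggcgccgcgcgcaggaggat
Cd164l2, chr4:133220559-133220808, + strand: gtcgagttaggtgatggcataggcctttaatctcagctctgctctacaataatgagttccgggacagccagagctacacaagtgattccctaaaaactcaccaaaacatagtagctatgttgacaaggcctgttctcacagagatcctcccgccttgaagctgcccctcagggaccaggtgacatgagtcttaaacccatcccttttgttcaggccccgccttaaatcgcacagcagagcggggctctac
Each run was searched, over 250 bases and on both strands, for ATTAAT, the core of many POU-homeodomain sites, and for the E-boxes CATCTG and CAGCTG. RefSeq gave 8 promoters for the 7 markers, 2 of them for Anxa4. ATTAAT occurred in 1 of the 8, that of Smpx, from base -250 to -245, and in 4.39% of all 32851 promoters. CATCTG occurred in 0 of 8 and in 14.4% of all promoters, and CAGCTG in 1 of 8, the second of Anxa4 from -161 to -156, and in 13.0%. Among 35 promoters of 34 other hair cell genes the 3 motifs were found in 2, 3 and 8. Among the 4 genes printed, the GC content of the window ran from 42.8% for Smpx and 50.8% for Cd164l2 to 57.6% for Acbd7 and 75.2% for Rasd2, beside a median of 52.4% over all promoters. These matches describe letters only.

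Depth recovered from the steps between low values was, in units of 1e6 fragments, 14.6 to 17.0 in WT, 15.5 to 17.4 in HET and 14.3 to 15.7 in HOM. WT replicate 3 and HET replicate 1 stood apart: across all tested genes the Pearson correlation of log2(FPKM + 1) between them was 0.985, against 0.953 and 0.956 between HET replicate 1 and the other HET libraries (genes are not independent replicates). The HOM genes had been listed for a difference from WT, since the 3 HOM libraries lay outside the WT range in 1109 of 1109 tested genes (100%). Pou4f3 itself had 25.02, 24.49 and 26.97 FPKM in WT, 24.21, 21.74 and 25.56 in HET and 5.92, 1.36 and 9.39 in HOM. In bulk tissue, fewer hair cells and less RNA per hair cell cannot be told apart.

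Among the 7 markers Myo6, Acbd7 and Rasd2 were the most abundant in WT, at means of 34.9, 33.6 and 31.6 FPKM, and their ranges over libraries overlapped. Smpx followed at 22.2, apart from Rasd2, then Cd164l2 at 16.4 and Anxa4 at 14.95, each overlapping the gene before it. Gng8 was the lowest, at 2.94 FPKM. The order was close to this in HET, where Anxa4 stood above Cd164l2 with overlapping ranges. In HOM the order was Myo6, Anxa4, Acbd7, Smpx, Rasd2 and Cd164l2, and Myo6 alone was separate from its neighbour.

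**Figure D1:**
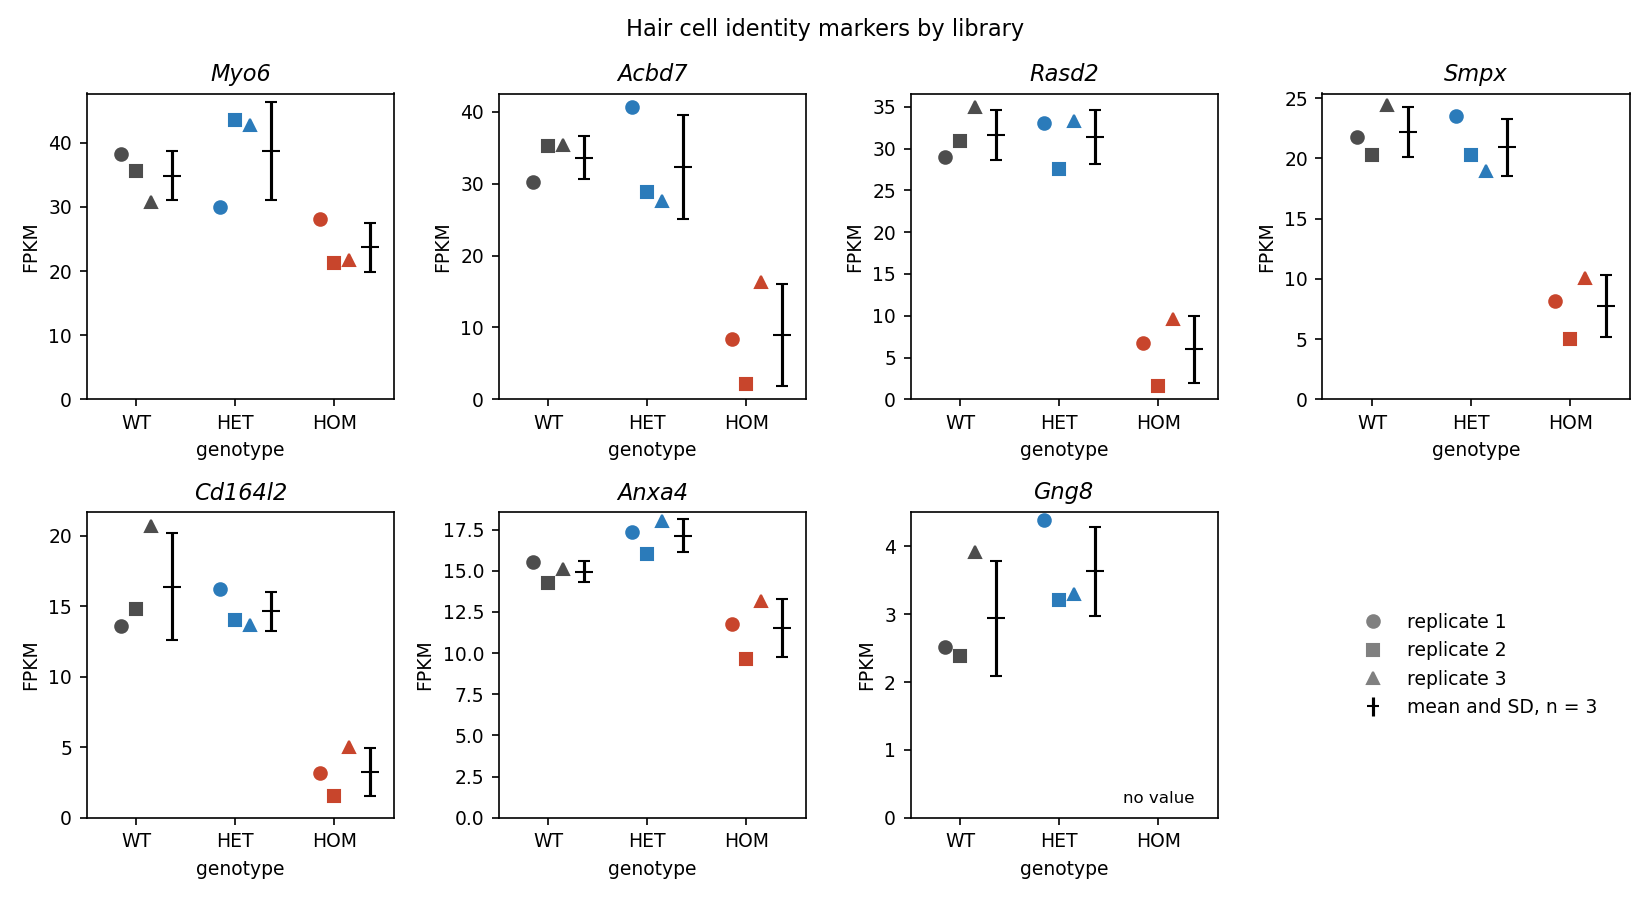
FPKM (linear axis from 0) of the 7 markers in each library, with 1 panel per gene, WT, HET and HOM on the x axis, marker shapes for replicates and bars for the mean and SD (n = 3). Every HOM point lies below all WT and HET points of its gene for the 6 markers listed in HOM; Gng8 has no HOM value.

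Myosin VI RNA was lower in HOM by a small margin. Myo6 had 38.27, 35.58 and 30.73 FPKM in WT, 29.93, 43.53 and 42.76 in HET, and 28.14, 21.28 and 21.77 in HOM. HOM replicate 1 lay just under HET replicate 1, and the HOM range did not overlap the others. The HOM mean was 23.7 ± 3.83 FPKM (SD, n = 3), or 68.1% ± 10.98 of the WT mean. In limma, with Benjamini-Hochberg adjustment over all genes tested, Myo6 fell by 0.54 on the log2(FPKM + 1) scale against WT (SE 0.13, adjusted p = 0.0125) and by 0.68 against HET (SE 0.17, adjusted p = 0.0229). Against WT the call did not hold when libraries were scaled by the median ratio (-0.34, adjusted p = 0.0560) or the upper quartile (-0.31, adjusted p = 0.101) of the listed genes. Against HET, among the alternatives with no replicate block, it did not hold without HOM replicate 2 (adjusted p = 0.0582) or 3 (0.0603), without HET replicate 2 (0.0802) or 3 (0.0854) or with upper-quartile scaling (-0.44, 0.0702).

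Annexin A4 RNA had the highest mean share of its level left in HOM. Anxa4 had 15.52, 14.23 and 15.10 FPKM in WT, 17.37, 16.02 and 18.0 in HET and 11.74, 9.65 and 13.15 in HOM. No library of a group lay within another's range, with HET highest and HOM lowest. The HOM mean was 11.5 ± 1.76 FPKM (SD, n = 3), or 77.0% ± 11.8 of WT. Anxa4 fell by 0.36 against WT (SE 0.10, adjusted p = 0.0205) and by 0.54 against HET (SE 0.11, adjusted p = 0.0121). The call against WT did not hold with median-ratio scaling (-0.16, adjusted p = 0.196), with upper-quartile scaling (-0.14, 0.245), without WT replicate 1 (0.0623) or without WT replicate 3 (0.0544). The call against HET did not hold without HET replicate 3 (0.0581).

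Smpx RNA, of the cytoskeletal protein, was lower in each HOM library. WT libraries had 21.80, 20.31 and 24.41 FPKM, HET libraries 23.53, 20.25 and 18.94, and HOM libraries 8.17, 4.99 and 10.08. All 3 HOM libraries were far below the lowest of the other 6, which was HET replicate 3. The HOM mean was 7.75 ± 2.57 FPKM (SD, n = 3), or 34.9% ± 11.6 of WT. Smpx fell by 1.45 against WT (SE 0.22, adjusted p = 0.00385) and by 1.36 against HET (SE 0.22, adjusted p = 0.00624), and both calls held in each of the 14 alternatives. Since Smpx is also a muscle gene, 14 skeletal muscle genes were read beside it. Their summed level was 5.60 to 8.15 FPKM in the WT and HET libraries, below that of Smpx alone, and the median gene was at 0.08 to 0.18 FPKM. None of the 14 was listed in HOM. Smpx is X-linked, and Xist, transcribed from the inactive X, was at 0.08, 78.17 and 0.06 FPKM in WT and 53.95, 107.88 and 56.88 in HET, and was not listed in HOM. The Y-linked genes Ddx3y and Eif2s3y were at least at 8.05 and 8.88 FPKM in WT and 4.79 and 5.95 in HET. WT replicate 2 and the HET libraries thus held RNA of both sexes, while WT replicates 1 and 3 had almost no Xist. The part of sex in the Smpx values was not tested.

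Acbd7 varied more among the HOM libraries than any other marker. It had 30.20, 35.30 and 35.36 FPKM in WT, 40.60, 28.78 and 27.62 in HET, and 8.42, 2.10 and 16.27 in HOM. HOM replicate 3 was 7.75 times replicate 2, and even its upper 95% counting limit, 19.3 FPKM, was below the lowest WT and HET value. These HOM values rest on about 64, 17 and 137 fragments, and the intervals cover counting error only. The HOM mean was 8.93 ± 7.10 FPKM (SD, n = 3), or 26.6% ± 21.1 of WT. Acbd7 fell by 2.12 against WT (SE 0.58, adjusted p = 0.0183) and by 2.05 against HET (SE 0.59, adjusted p = 0.0336). The call against WT did not hold without WT replicate 2 (adjusted p = 0.0534) or 3 (0.0504). The call against HET did not hold without HOM replicate 1 (0.0694) or without HET replicate 1 (0.0844), 2 (0.0862) or 3 (0.0882).

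Rasd2, the Ras-like GTPase gene, was among the most abundant markers in WT and among the lowest in HOM. It had 28.99, 30.95 and 34.93 FPKM in WT, 33.07, 27.61 and 33.36 in HET, and 6.76, 1.63 and 9.58 in HOM. WT and HET overlapped widely, and the highest HOM library was far below both. The HOM mean was 5.99 ± 4.03 FPKM (SD, n = 3), or 18.9% ± 12.7 of WT. Rasd2 fell by 2.44 against WT (SE 0.49, adjusted p = 0.00846) and fell by 2.43 against HET (SE 0.49, adjusted p = 0.0121). The call against HET did not hold without HET replicate 2 (adjusted p = 0.0519) or 3 (0.0576).

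Gng8, the G-protein gamma subunit gene, was the least abundant of the 7 markers. It had 2.51, 2.39 and 3.91 FPKM in WT and 4.39, 3.21 and 3.30 in HET, from 53 to 109 fragments a library. The groups overlapped, since WT replicate 3 lay above HET replicates 2 and 3. Its HOM level was not analysed here, because the listed genes do not include it, and no direction can be read from that.

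Cd164l2, the sialomucin relative, kept a share of its level close to that of Rasd2. It had 13.63, 14.84 and 20.73 FPKM in WT, 16.23, 14.03 and 13.66 in HET, and 3.18, 1.58 and 5.01 in HOM. WT replicate 3 stood above the other WT libraries, and all 3 HOM libraries were below every other library. The HOM mean was 3.26 ± 1.72 FPKM (SD, n = 3), or 19.9% ± 10.5 of WT. Cd164l2 fell by 2.09 against WT (SE 0.32, adjusted p = 0.00380) and by 1.96 against HET (SE 0.29, adjusted p = 0.00460), and both calls held in each of the 14 alternatives.

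Against WT, 6 of 6 listed markers were thus called lower in HOM, where 93.1% of the 1109 genes tested were called in either direction and 65.4% were called lower. The genes had been listed for that difference, and adjustment covers the listed genes and not all expressed genes, so the count is a description. The same limit applies to the p-values of single markers against WT and to the calls against WT that held in the alternatives. Against HET, 6 of 6 were called lower, where 44.5% of 1090 genes were called and 36.3% were called lower. The ranges of HOM and HET did not overlap for any of the 6, with HOM lower in 46.2% of the genes tested. Without HET replicate 2 the count against HET was 3 of 6 and without HET replicate 3 it was 2 of 6, while over all genes it went from 485 to 142 and 116. The median change of the markers was -1.77 against WT and -1.66 against HET, beside -0.22 and -0.16 over all genes tested. Scaling by the listed genes moved the medians over all genes tested to -0.05 or -0.03 against WT and to -0.03 or +0.04 against HET. Such scaling draws the listed genes toward no change by design, and these genes had been listed for a difference from WT. It changed the split of calls against WT from 307 higher and 725 lower to 352 and 303 or 353 and 285. Against HET it changed the split from 89 higher and 396 lower to 246 and 272 or 306 and 223. No marker changed sign under either scaling. Both comparisons share the HOM libraries and are not independent. In single-gene two-sided exact permutation tests p was 0.1 for each of the 12 HOM tests, the smallest that 3 against 3 libraries allow, or 0.146 after Benjamini-Hochberg adjustment over 19 tests. Against WT this p was fixed by the listing, since HOM and WT did not overlap in any of the 1109 genes tested. The adjustment includes those tests, so its values are a description as well.

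**Figure D2:**
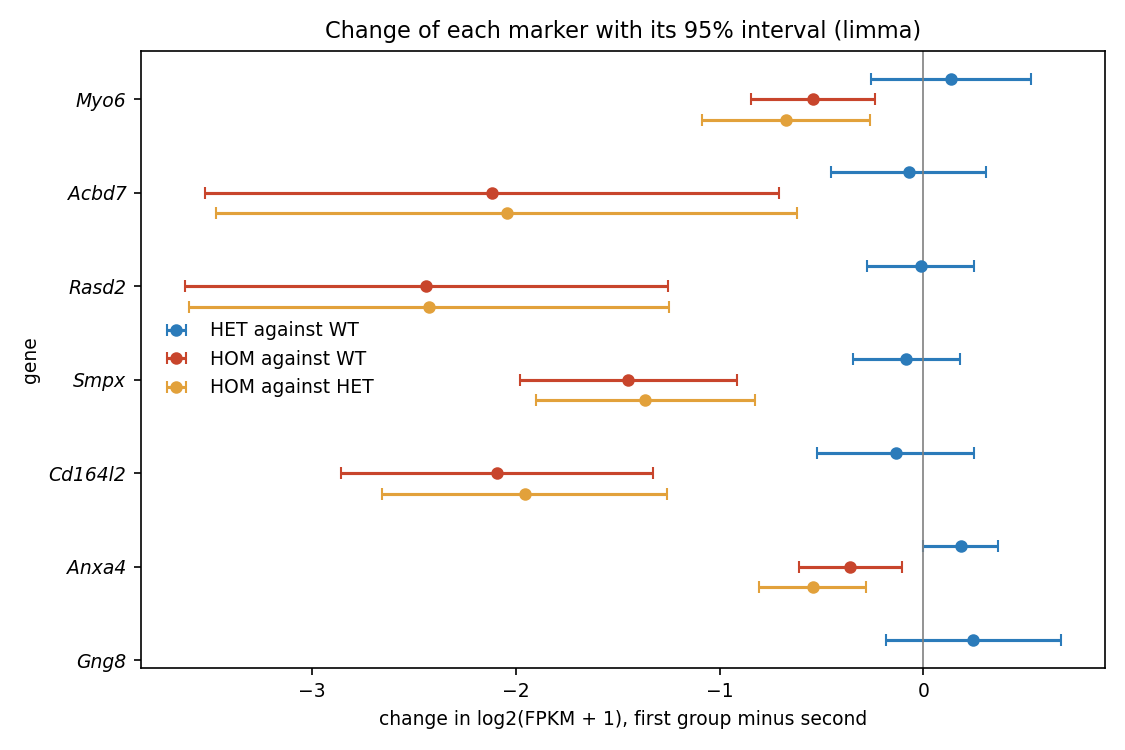
Change in log2(FPKM + 1) of each marker (x axis, first group minus second) with its 95% limma interval, for HET against WT, HOM against WT and HOM against HET. The HOM intervals of Rasd2, Acbd7, Cd164l2 and Smpx lie well below 0, those of Myo6 and Anxa4 nearer to it, and all 7 HET intervals include 0.

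With 1 mutant allele the markers were near the wildtype level. In HET against WT 0 of 7 were called by limma, as were 0% of the 15391 genes tested, where 266 genes (1.73%) had an unadjusted p under 0.05. HET means relative to WT were 111% ± 21.9 for Myo6, 115% ± 6.77 for Anxa4, 94.3% ± 10.7 for Smpx, 96.2% ± 21.4 for Acbd7, 99.1% ± 10.2 for Rasd2, 124% ± 22.4 for Gng8 and 89.3% ± 8.47 for Cd164l2 (SD, n = 3 each). The changes on the log2 scale ran from -0.14 for Cd164l2 (95% interval -0.52 to 0.25) to 0.25 for Gng8 (-0.18 to 0.68), with a median of -0.01 beside 0.001 over all genes. For Rasd2 the difference was -0.01 (-0.28 to 0.25). For Acbd7 the interval was -0.45 to 0.31, for Smpx -0.35 to 0.18 and for Myo6 -0.26 to 0.53, and changes within these intervals were not excluded. The intervals are for single genes and are not limits of detection. Larger changes could also go uncalled, since the adjustment covered 15391 genes.

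Anxa4 was the only marker of the 7 whose HET and WT libraries did not overlap. Its change was 0.18 (SE 0.08, 95% interval -0.001 to 0.37), with an unadjusted limma p of 0.0513, an adjusted p of 0.99975 and a two-sided exact permutation p of 0.1, the smallest possible. HET lay wholly above WT in 2.82% of all genes tested. The difference did not pass the test.

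WT replicate 3 and HET replicate 1 differed from the rest of their groups by gene length, and the longest and the shortest marker lay on the same side of 0 as genes of their length. In HET replicate 1 genes of over 8 kb of exon were lower than in the other 2 HET libraries by a median of -0.28 on the log2(FPKM + 1) scale, and genes of 1 to 2 kb were higher by 0.30. Myo6, the longest marker, deviated by -0.51 there, and Acbd7, the shortest, by 0.51, beyond the median of 0.12 for genes up to 1 kb. In WT replicate 3 Myo6 deviated by -0.26, Cd164l2 by 0.51 and Gng8 by 0.51, beside medians of -0.15 over 8 kb and 0.18 for 1 to 2 kb. Anxa4, of intermediate length, deviated by 0.03 in HET replicate 1 and 0.02 in WT replicate 3. In these libraries the 14 spiral ganglion neuron genes also summed to more, 133 and 139 FPKM, against 67.5 to 107 in the other 4. The part of either in the marker values was not tested. Without both libraries 0 of 7 markers were called in HET against WT.

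**Figure D3:**
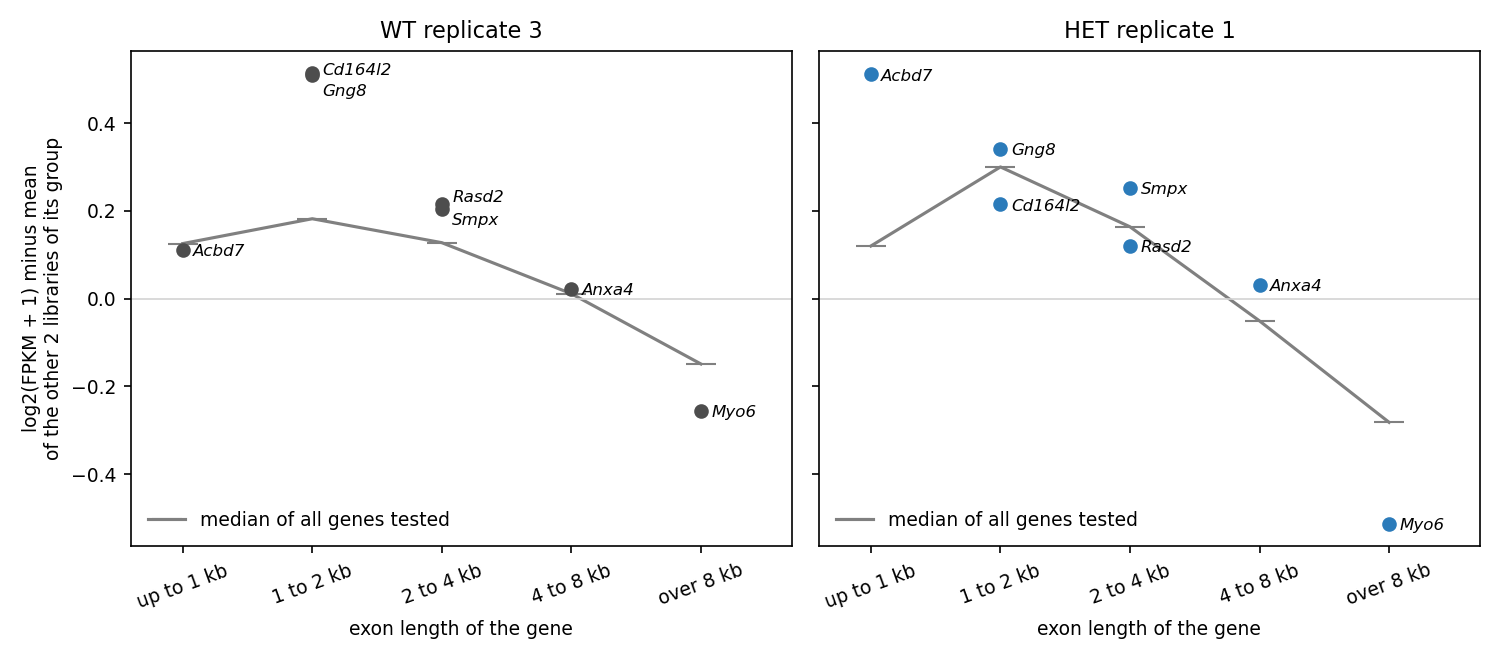
Deviation of each marker in log2(FPKM + 1) from the mean of the other 2 libraries of its group (y axis), by exon length (x axis), in WT replicate 3 and HET replicate 1. The grey line is the median of all genes tested in each length class and runs from above 0 for short genes to -0.15 and -0.28 for genes over 8 kb, and Myo6 lies lowest in both.

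The level kept in HOM differed among the markers and among the libraries. In HOM replicates 1, 2 and 3 Anxa4 was at 78.5%, 64.5% and 87.96% of its WT mean and Myo6 at 80.7%, 61.0% and 62.4%. Smpx was at 36.8%, 22.5% and 45.5% and Acbd7 at 25.04%, 6.25% and 48.4%. Cd164l2 was at 19.4%, 9.63% and 30.5% and Rasd2 at 21.4%, 5.15% and 30.3%. The lowest library of Anxa4 and of Myo6 was above the highest library of the other 4. Pou4f3 was at 23.2%, 5.33% and 36.8%.

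Replicate 2 was the lowest of the HOM libraries for 6 of 6 listed markers and for 25 of 25 listed genes of the other hair cell list. Among 580 listed genes that were lower in HOM and at 3 FPKM or more in WT, replicate 2 was the lowest in 50%, and among 253 that were higher, in 32.0%. The order of replicate 2, then 1, then 3 held for 5 of the 6 markers, for 17 of the 25 genes and for 30.9% of the 580. Myo6 was the exception among the markers, with replicate 1 highest. The ratio of replicate 3 to replicate 2 was 7.75 for Acbd7, 5.88 for Rasd2, 3.17 for Cd164l2, 2.02 for Smpx, 1.36 for Anxa4 and 1.02 for Myo6. Without replicate 2 the mean kept level of Acbd7 was 36.7% and that of Rasd2 25.8%, and without replicate 3 that of Acbd7 was 15.6%.

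**Figure D4:**
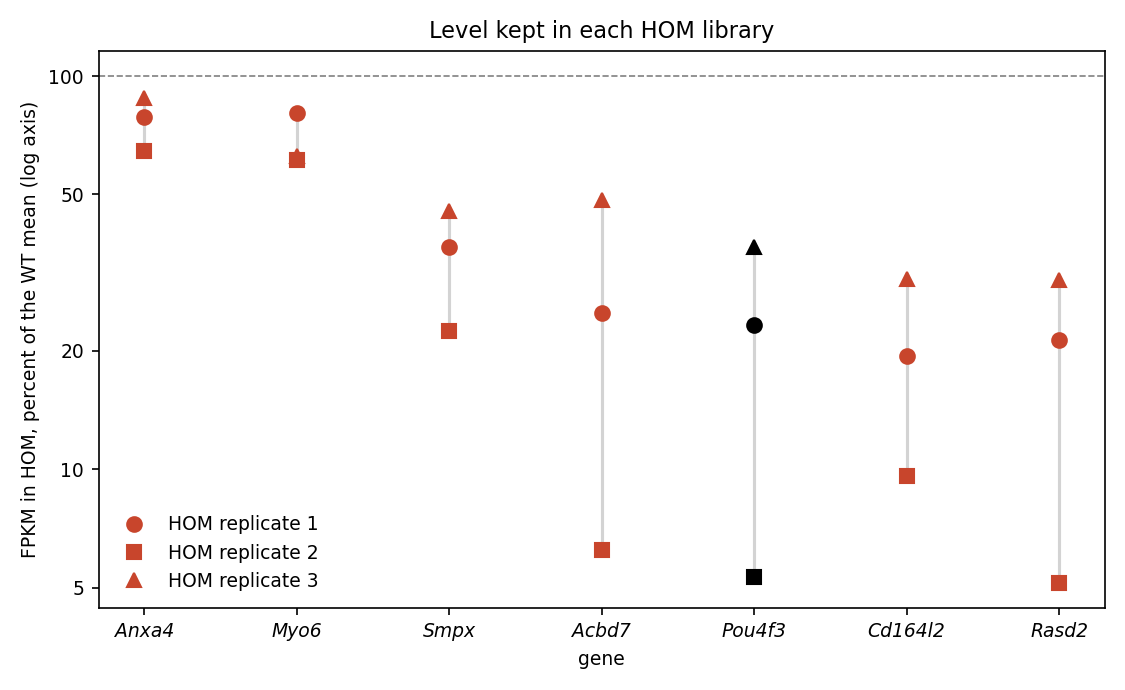
FPKM in each HOM library as a percent of the WT mean (log axis) for the 6 listed markers in red and Pou4f3 in black, with a shape for each replicate and a dashed line at 100. Replicate 2 is the lowest point of each gene, at 5.15 for Rasd2 and 6.25 for Acbd7, and the spread is narrow for Anxa4 and Myo6.

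Within a library, 4 of the 5 other listed markers had a lower FPKM ratio to Myo6 in each HOM library than in any WT library, and 2 of the 5 a lower ratio than in any HET library. The ratio of Rasd2 to Myo6 was 0.758, 0.870 and 1.14 in WT, 1.10, 0.634 and 0.780 in HET, and 0.240, 0.0766 and 0.440 in HOM, and the HOM range lay below both others. That of Cd164l2 did likewise, at 0.0742 to 0.230 in HOM against 0.319 or more elsewhere. The ratios of Acbd7, up to 0.747 in HOM, and Smpx, up to 0.463, lay below the WT range and overlapped the HET range, which began at 0.646 and 0.443. The ratio of Anxa4 to Myo6 was 0.406, 0.400 and 0.491 in WT, 0.580, 0.368 and 0.421 in HET and 0.417, 0.453 and 0.604 in HOM, with overlapping ranges. A ratio of this kind does not depend on how the libraries are scaled to each other, but it does depend on Myo6. Myo6 kept 68.1% of its WT mean in HOM, so a marker that kept much less has a lower ratio there. It also deviated by -0.51 in HET replicate 1 and by -0.26 in WT replicate 3 on the log2(FPKM + 1) scale, which widens the ranges compared. The share of all listed genes with such a lower ratio was not computed, so the counts are a description.

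Set among the other hair cell genes, the markers were spread over the range, with Anxa4 and Myo6 near its top. Of 25 listed genes 13 kept less than any marker and 12 did not. The comparison list held 34 other hair cell genes, among them genes of the bundle, the synapse, ion channels, transcription factors and calcium-binding proteins. Their median kept level was 18.1%, from 2.20% for Otof, the calcium sensor of the ribbon synapse, to 90.7% for Ush1c, which encodes the bundle scaffold harmonin. The median of the 6 markers was 30.7%. Anxa4 and Myo6 came after Ush1c and before Cacna1d, the hair cell calcium channel gene, at 61.7%, and Rasd2 and Cd164l2 stood close to Pou4f3. Myo7a, another myosin gene used as a hair cell marker, was at 43.6% ± 21.1 and Gfi1, a hair cell transcription factor, at 15.7% ± 11.6 (SD, n = 3). These places are a description of genes listed for a difference, and differences in place were not tested.

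Against WT 24 of 24 tested genes of that list were called lower in HOM, with a median of -1.94, and against HET 23 of 25, with a median of -1.88, beside 65.4% and 36.3% of all genes tested. With fewer genes passing the filter, 13, 13 and 15 of 18 were called against WT without WT replicates 1, 2 and 3, and 14, 10 and 9 of 18 against HET without HET replicates 1, 2 and 3. Over all genes the calls then numbered 588, 594 and 672 of 1026 against WT, and 431 of 1018, 142 of 1022 and 116 of 1020 against HET. The genes with the highest WT means included Grxcr2, a bundle gene, which fell by 3.81 against WT (adjusted p = 0.000931), and Lhfpl5, of the mechanotransduction complex, which fell by 3.06 (adjusted p = 0.00261). Ush1c fell by 0.14 against WT (SE 0.04, adjusted p = 0.0211), and its change of -0.21 against HET did not pass (SE 0.10, adjusted p = 0.121). Otof, Grxcr1, Chrna10 and Ocm were called lower in both comparisons, with changes of -4.36, -2.99, -2.86 and -1.96 against WT and -4.26, -2.84, -2.80 and -2.39 against HET. The calcium-binding protein genes Calb2, at 55.6 FPKM in WT, and Pvalb, at 39.8, were not listed in HOM. In HET against WT 0 of 32 were called, with a median of 0.04.

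**Figure D5:**
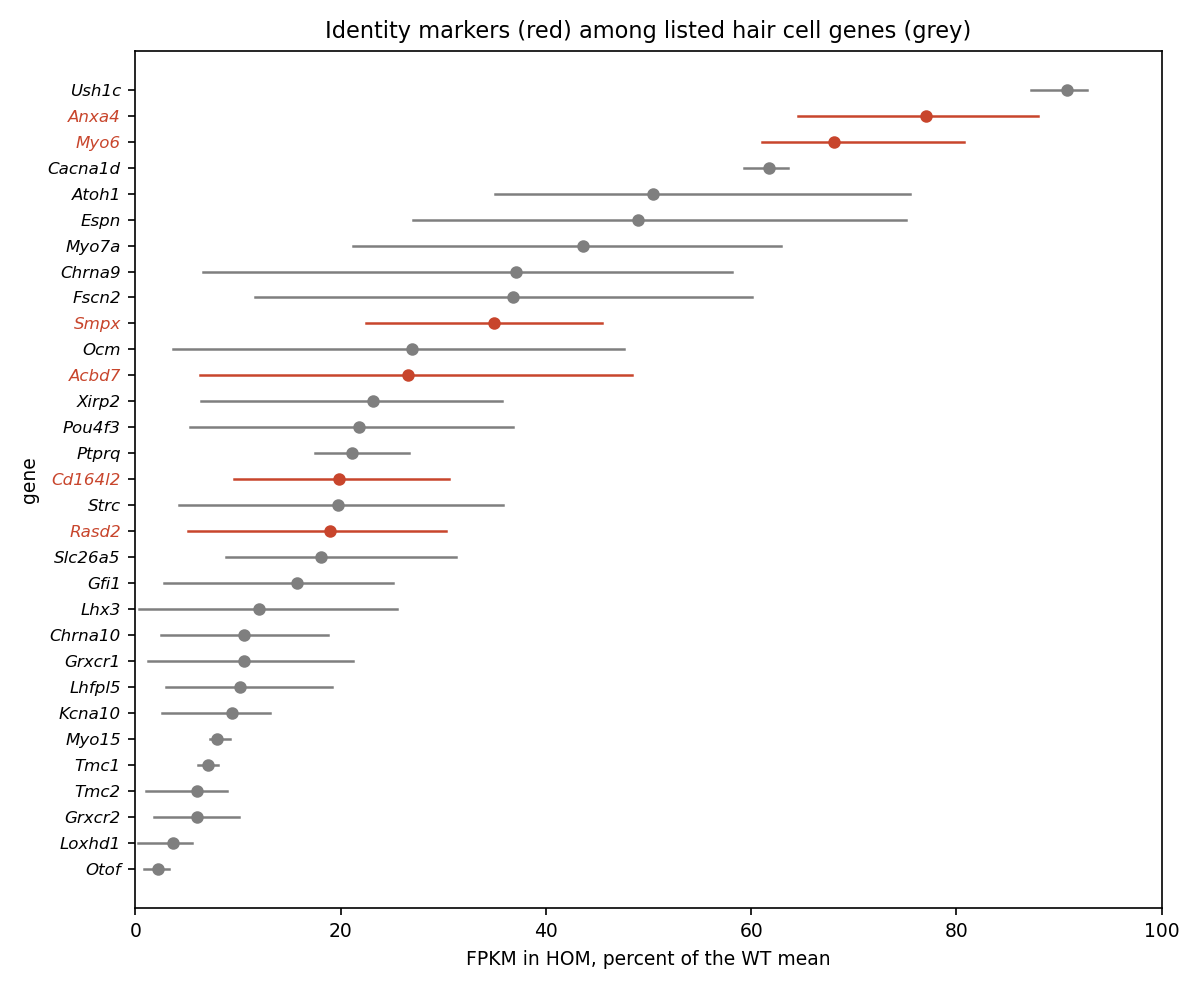
Mean FPKM in HOM as a percent of the WT mean (x axis, linear from 0) for the 6 listed markers (red) and 25 other listed hair cell genes (grey), with lines from the lowest to the highest library. Anxa4 and Myo6 are near the top, and Rasd2 and Cd164l2 are close to Pou4f3.

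Relatives of the markers were read to see whether whole gene families moved. Of 16 other unconventional myosin genes 5 were listed in HOM, and all 5 were called lower against WT, where 65.4% of genes were, among them Myo7a, which fell by 1.10, Myo3b, by 1.11, and Myo3a, by 0.81. Myo15 and Myo16 were the others, and Myo16, which fell by 0.67, was too low in HET and HOM to be tested against HET. Against HET 4 of 4 were called lower, where 36.3% of genes were. Myo9b, Myo1e and Myo5b, among the most abundant of the family after Myo6 at WT means of 16.4, 14.5 and 14.3 FPKM, were not listed in HOM. Several of the listed myosins are hair cell genes held by the other list as well.

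The remaining families held few listed genes. Of 11 other annexin genes only Anxa3 was listed, and it was called higher against WT by 0.20 (adjusted p = 0.0389) and not against HET (0.08, adjusted p = 0.689). Anxa5, Anxa6 and Anxa2 had WT means of 235, 146 and 101 FPKM, far above Anxa4, and were not listed. None of 5 relatives of Acbd7 was listed, and the most abundant, Dbi, had 133 FPKM in WT. Of 11 other G-protein gamma genes Gng2 and Gng7 were listed and both were called higher, where 27.7% of genes were called higher against WT and 8.17% against HET. Gng2 rose by 0.22 against WT (adjusted p = 0.0111) and 0.31 against HET (adjusted p = 0.00569), and Gng7 by 0.16 (adjusted p = 0.0251) and 0.19 (adjusted p = 0.0227). Gng5 was the most abundant in WT, at 30.3 FPKM. Rasd1, at 1.55 FPKM in WT, and Cd164, at 68.2 FPKM, were not listed. In HET against WT none of these relatives was called, as was none of the 15391 genes tested.

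For each listed marker the listed genes of most similar profile were sought among 827 others at 3 FPKM or more in WT. Similarity was the root mean square difference, over the 6 HET and HOM libraries, of log2(FPKM + 1) less its WT mean, and it is a description that shares libraries and depth. Pou4f3 was the nearest gene to Rasd2, at 0.15, and to Acbd7, at 0.23. Rasd2 was followed by Espnl, at 0.25, and Tmem255b, at 0.30, and Acbd7 by Gipc3, at 0.29, and Cxcl14, at 0.38. Cd164l2 had Lrrc10b at 0.12, Klhdc7b at 0.15 and Gm30191 at 0.16. Smpx had Fgf8 at 0.14 and St8sia3 and Ap3b2 at 0.18 each. Myo6 was closest to Syt14, at 0.06, then Mtus2, at 0.11, and Daam2, at 0.12, and Anxa4 was close to Iqcd and Nrxn3, at 0.12 each. The nearest genes of Myo6 and Anxa4 had small changes as well, and those of the other 4 large ones. This follows from the measure, which picks genes by the likeness of their changes.

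Genes of other cochlear cells were read beside the markers. Of 16 supporting cell genes 4 were listed in HOM: Epyc, Gjb2 and Gjb6 rose against WT, by 0.45, 0.27 and 0.29, and Jag1, a Notch ligand of supporting cells, fell by 0.40. All 4 passed the test against HET in the same direction. Over all genes tested 27.7% were called higher and 65.4% lower against WT, and 8.17% and 36.3% against HET. The genes had been listed for a difference from WT, so these calls are a description. Of 9 mesenchyme genes Dcn and Lum were listed and rose by 0.44 and 0.42 against WT. None of 10 epithelium, 14 spiral ganglion neuron or 9 macrophage genes was listed, so their levels in HOM were not analysed here. Over WT and HET the epithelium genes summed to 729 to 878 FPKM, the macrophage genes to 38.5 to 49.8 and 8 brain genes, of which Gad1 was listed and fell by 0.29 in HOM against WT, to 16.4 to 20.03. In HET against WT no gene of these lists, of the muscle list or of 5 sex-linked genes was called, as was none of the 15391 genes tested. The part of tissue makeup in the marker changes was not tested.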

How the data were processed

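RNA of 9 mouse cochlear libraries was sequenced on an Illumina HiSeq, per the labels. The deposited values are FPKM, calculated by the authors for each library; DESeq2 and the genome build mm8 are named in the submitters' processing notes, with aligner, counter and gene annotation not given in the sources used here. Of 51912 gene identifiers, 51633 matched GENCODE M21 on GRCm38, which gave symbols and exon lengths. The HOM files give values for 1137 genes, and no others were analysed here in that group.

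Depth was recovered from low FPKM values of genes with up to 600 bp of exon, of which 99.4% to 100% were whole fragments within 0.1; in HOM 19 to 24 values could be used. This check is not independent, since wholeness also set the depth. Counting intervals are exact Poisson intervals at the 95% level on the recovered fragments.

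Groups were compared with limma 3.58.1 in R 4.3.3 (other steps in Python 3.11.15) on log2(FPKM + 1), which understates changes of low genes, with a mean-variance trend and only the compared groups in each fit, among genes that reached 1 FPKM in 3 or more libraries. P-values are two-sided with Benjamini-Hochberg adjustment over all genes tested, at a threshold of 0.05, and the fit was tested on simulated data. Kept levels are HOM FPKM as a percent of the WT mean.

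The markers, the gene lists and the tests were chosen with earlier results of these data known. Lists were other hair cell genes, relatives of each marker, and supporting cell, epithelium, skeletal muscle, spiral ganglion neuron, brain, macrophage, mesenchyme and sex-linked genes. Named genes were the 7 markers, Pou4f3, up to 10 other hair cell genes of highest WT mean with Myo7a and Gfi1, the most abundant relatives and those that passed a test, and the 3 nearest genes to each listed marker; a few genes under this rule are not reported here. Gene names beyond this, in the lists of other cell types and among genes at the ends of a range, were chosen after their values were seen. Alternatives were no trend, a pseudocount of 0.1, filters of 0 and 5 FPKM, median-ratio and upper-quartile scaling, a fit of all 3 groups, a replicate block, and leaving out libraries.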

Additional observations from a re-analysis of the deposited data

How the results depend on the processing

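Marker changes kept direction and side of the threshold in 76 of 84 alternatives for HOM against WT and 71 of 84 for HOM against HET, and the exceptions stand beside each marker in the results, except that of the replicate block, given with the pairing check. In HET against WT 98 of 103 did, and the change of Rasd2 (-0.01) turned to 0.0728 without HET replicate 2, 0.06 without WT replicate 3 and 0.0185 without HET replicate 1 and WT replicate 3 together, that of Acbd7 (-0.07) to 0.0275 without HET replicate 3, and that of Cd164l2 (-0.14) to 0.0353 without WT replicate 3. With a library left out they ran from -0.0719 to 0.0728 for Rasd2, from -0.242 to 0.0275 for Acbd7 and from -0.25008 to 0.0353 for Cd164l2. None of the 7 markers was called in any HET alternative. Over all genes 5 of 1131 were called in HET against WT when the 3 groups shared a fit of listed genes, and 0 to 1 with a library left out (1 without WT replicate 1 or 2).

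Genes called in HOM against WT went from 1032 to 632 at 5 FPKM or more, where 675 were tested, to 655 and 638 with median-ratio and upper-quartile scaling, and to 588 to 864 with a library left out. The lowest of these were 588, 594 and 672, without WT replicates 1, 2 and 3, where 1026 were tested. Genes called in HOM against HET went from 485 to 272 at 5 FPKM or more and to 116 to 431 with a library left out. The other hair cell genes went from 24 to 13 to 24 against WT with a library left out, and from 23 to 15 of 17 at 5 FPKM or more and 9 to 24 with a library left out against HET. Markers called were 4 to 6 against WT and 2 to 5 against HET with a library left out. The kept level of Myo6 became 80.5% with upper-quartile scaling, and that of Anxa4 89.2% and 90.7% with median-ratio and upper-quartile scaling. With a library left out it was 61.7% to 71.6% for Myo6, 71.5% to 83.2% for Anxa4 and 15.6% to 36.7% for Acbd7. Where the fit or scaling moved a count and no fewer genes were tested, the cause was not tested.

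Replicate numbers gave no pairing that held over all comparisons. Same-numbered libraries correlated at -0.52, 0.29 and -0.47 for HET and WT, and at -0.32, 0.09 and -0.16 for HOM and HET. For HOM and WT each HOM library correlated most with the same-numbered WT library, at 0.25, 0.09 and 0.28. Differently numbered libraries of HOM and WT ran from -0.29 to 0.10. Whether HOM and WT libraries were paired was not tested. With the number as a replicate block 304 genes and 5 of 6 markers were called in HOM against HET, all but Myo6 (adjusted p = 0.0660), 909 genes and 6 markers in HOM against WT, and 0 genes in HET against WT. Depth limits Gng8, at 53 to 109 fragments a library, and Acbd7 in HOM.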
